A study of Homo sapiens with 2 samples.

Results

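Protein tyrosine phosphatases remove phosphate from tyrosine residues and so oppose, or in some cases permit, signalling by tyrosine kinases. The genes described here are the receptor-type family (PTPR symbols), whose proteins span the membrane and mostly carry tandem phosphatase domains inside the cell, and the non-receptor family (PTPN symbols), whose proteins are placed in the cell by other domains such as SH2, FERM or PDZ domains. In epithelia such as that of the mouth, members of both families act on adherens junctions, on SRC kinases, on growth factor receptors and on the RAS pathway. The genes were chosen by symbol, and the family itself was selected on the ratios between these same libraries, so the values below describe it and test nothing. The symbols gave 36 of the 20263 genes in the deposited tables, 20 of receptor type and 16 of non-receptor type.

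The cells were Cal-27, an established line of tongue squamous carcinoma cells grown in DMEM with fetal bovine serum. Both groups carried a stably transduced construct: sh-scramble in the control, and GV-248-HIPK2-sh, directed at the nuclear kinase HIPK2, in the other. The study asks which pathways of invasion and epithelial-mesenchymal transition differ when HIPK2 is attenuated. The sources used here do not say whether a culture was a clone or a pool. There was 1 library in each group. Differences therefore have no replicate check and no p-value, and a ratio compares these libraries, not the conditions.

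The libraries held 28064923 counts (control) and 26450251 counts (HIPK2 shRNA). HIPK2 itself had 110 control counts against 218, a ratio of CPM (counts scaled for library size) of 2.01 (95% counting interval 1.59 to 2.55), while the authors' deposited TPM, a level per transcript length, was 1.63 and 0.873. Because the counts go against its label, the second sample is named below only as the library labelled HIPK2 shRNA. All 14 squamous epithelial markers reached 1 CPM in a library, with KRT5 at 2766 and 2554 CPM; 2 were past 2-fold lower, among them KRT14 (318 and 44 counts). Of 18 leukocyte markers, 8 reached 1 CPM, and the summed level over the list was 162 and 76.5 CPM. Of these 8, HCLS1 (857 and 37 counts), LAPTM5 (1691 and 557) and ITGB2 (196 and 69) were past 2-fold lower and 0 were past 2-fold higher. CD14 (136 and 88 counts), CORO1A (642 and 452) and CD68 (634 and 558) were lower by less. CSF1R had 231 and 238 counts and ITGAM 43 and 55. By the sign of the log2 ratio 6 of the 8 were lower and 2 higher. The lineage-defining CD3E, CD3D, CD2, MS4A1, CD79A, TYROBP and CD53 were at 0 counts in both libraries. In bulk RNA fewer cells of a type and less RNA per cell cannot be told apart.

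The promoters of the LAR family, the receptor phosphatases PTPRF, PTPRS and PTPRD, are shown because the highest ratios of the 36 genes and the highest level belong to it while PTPRD was at 0 counts; PTPRH, the gene with the lowest ratio, is shown beside them. Each sequence runs 5′ to 3′ on the gene's strand, from 250 bases before to 50 bases from a RefSeq start on GRCh38.p14. Capitals mark 3 motifs on either strand. The GC box reads GGGCGG. The second is the palindrome CACGTG, here called by its letters. The third, the cyclic AMP response element, reads TGACGTCA. The windows are chr19:5340763-5341062 (minus) for PTPRS, chr1:43530633-43530932 (plus) for PTPRF, chr9:10612953-10613252 (minus) for PTPRD and chr19:55209452-55209751 (minus) for PTPRH.
PTPRS: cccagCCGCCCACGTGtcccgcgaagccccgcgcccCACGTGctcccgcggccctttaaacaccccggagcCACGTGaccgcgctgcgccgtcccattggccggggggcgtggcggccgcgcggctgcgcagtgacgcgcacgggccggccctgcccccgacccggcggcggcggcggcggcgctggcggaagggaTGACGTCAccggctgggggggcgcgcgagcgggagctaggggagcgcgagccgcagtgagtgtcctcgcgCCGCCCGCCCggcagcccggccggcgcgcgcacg
PTPRF: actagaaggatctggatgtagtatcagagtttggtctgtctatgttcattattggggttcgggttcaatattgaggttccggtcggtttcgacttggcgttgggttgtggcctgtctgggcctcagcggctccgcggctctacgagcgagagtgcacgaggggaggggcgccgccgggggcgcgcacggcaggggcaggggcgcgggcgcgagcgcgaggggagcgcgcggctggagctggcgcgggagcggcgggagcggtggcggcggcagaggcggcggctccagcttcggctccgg
PTPRD: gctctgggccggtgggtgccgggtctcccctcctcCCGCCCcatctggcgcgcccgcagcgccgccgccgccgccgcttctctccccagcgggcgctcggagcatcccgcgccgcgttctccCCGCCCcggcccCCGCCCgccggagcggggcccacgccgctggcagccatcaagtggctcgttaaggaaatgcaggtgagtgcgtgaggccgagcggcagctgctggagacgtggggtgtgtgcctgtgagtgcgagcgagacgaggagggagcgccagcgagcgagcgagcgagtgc
PTPRH: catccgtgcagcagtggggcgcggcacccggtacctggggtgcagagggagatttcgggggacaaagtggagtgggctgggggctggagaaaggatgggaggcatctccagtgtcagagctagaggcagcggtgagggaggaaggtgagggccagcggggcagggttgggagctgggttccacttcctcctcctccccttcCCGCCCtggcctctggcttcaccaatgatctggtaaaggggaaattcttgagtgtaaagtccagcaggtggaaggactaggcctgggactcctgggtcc

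The PTPRS window held 3 GC boxes, 3 CACGTG boxes and 1 response element; the first GC box shares a base with the first CACGTG box, and the other GC boxes share letters with each other. The PTPRF window held none of these motifs, PTPRD held 3 GC boxes and PTPRH held 1. PTPRD has several RefSeq starts, of which the most upstream is shown. The windows of its other starts held 1 and 0 GC boxes, with 45.3% and 41.7% guanine and cytosine. CACGTG and TGACGTCA were searched after the PTPRS sequence had been read. Among 35116 RefSeq starts 15786 held a GC box, 7.26% a CACGTG box and 1.85% the response element. Guanine and cytosine made up 81.3% of the PTPRS window, 68.7% of PTPRF, 75.3% of PTPRD and 62.7% of PTPRH. The RefSeq start of PTPRS lies 47.6 kb upstream of the 5′ end of the gene as the files list it, and which start the libraries used was not measured. The starts of PTPRF, PTPRD and PTPRH lie 7, 279 and 45 bases from the listed ends.

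Most of the phosphatase genes were expressed in at least 1 library, and the control levels of these ran from 0.0631 to 59.6 TPM. Expression was set at 1 CPM in either library, which 13 of 20 receptor-type and 13 of 16 non-receptor genes reached. Over all genes 11813 of 20263 reached it. Per transcript length, PTPRF, a receptor found at cell contacts, was the highest of all 36, at 59.6 TPM in the control and 124 TPM in the other. Of the summed TPM of the 36 genes it held 24.95% (control) and 37.0% (library labelled HIPK2 shRNA). The next levels in the control were PTPN1 (35.5 TPM), which acts on the insulin receptor from the endoplasmic reticulum, and PTPRK (25.2 TPM), a receptor that binds its own kind on the neighbouring cell. Among the expressed genes the lowest control levels were those of PTPRS (0.0631 TPM), PTPN13 (0.268 TPM) and PTPRM (0.321 TPM). PTPRS reached 1 CPM only in the other library, with 0.292 CPM in the control.

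Receptor-type genes had the lower typical level, with a median of 1.47 TPM in the control against 5.08 TPM for the expressed non-receptor genes, and 2.41 against 4.87 TPM in the other library. At 10 TPM or more in the control stood 3 receptor-type genes (PTPRF, PTPRK and PTPRA) and 5 non-receptor genes (PTPN1, PTPN6, PTPN23, PTPN11 and PTPN18). In the other library PTPRU and PTPN2 joined them. The receptor type as a whole took 49.6% of the family's TPM in the control and 55.7% in the library labelled HIPK2 shRNA, but 32.9% and 29.7% of what remained when PTPRF was left out of both the family and the type.

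**Figure D1:**
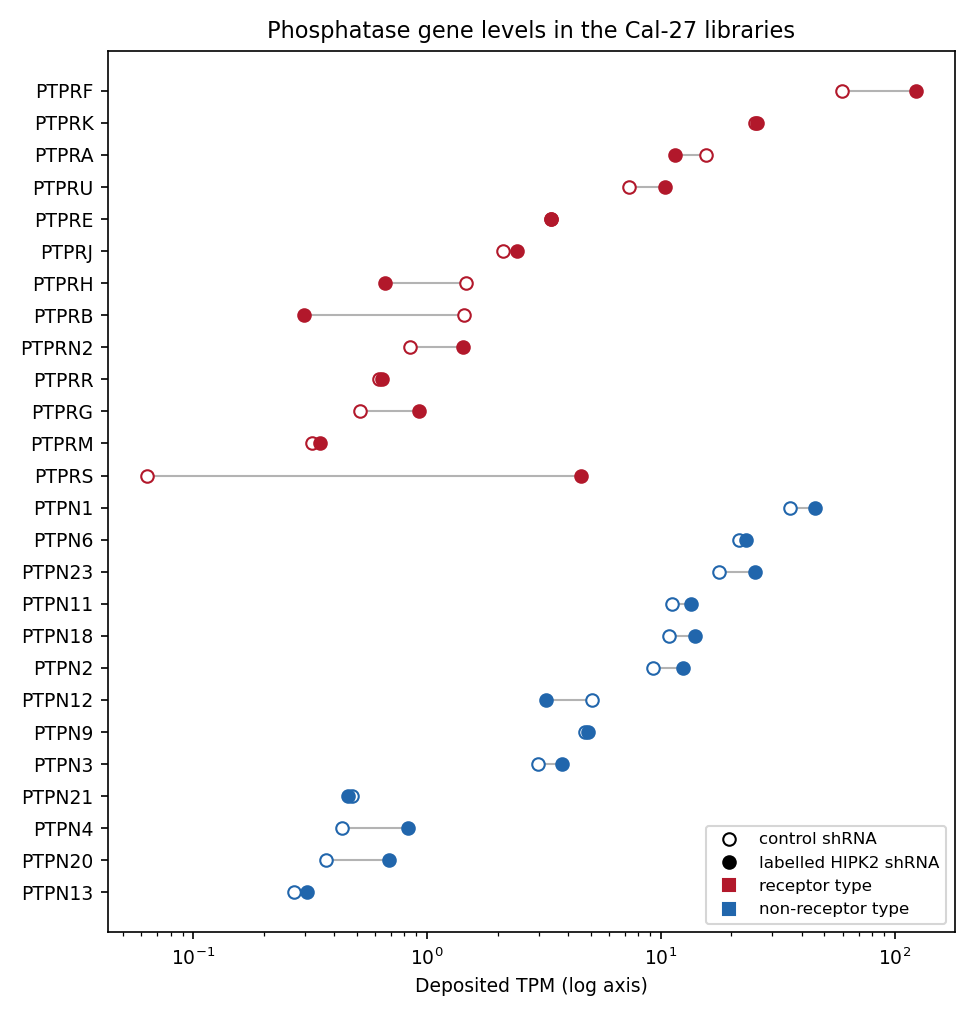
Deposited TPM (log axis) of the 26 expressed phosphatase genes in the control library (open circles) and the library labelled HIPK2 shRNA (filled circles), red for receptor type and blue for non-receptor type. PTPRF is the highest gene in both libraries and PTPRS has the longest distance between its circles, from 0.0631 to 4.54 TPM; genes at 0 counts are not drawn.

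Most genes that were not expressed are known from other tissues. PTPRC (CD45 of leukocytes), PTPN22 and PTPN7 (of lymphoid cells), PTPN5 (of the striatum), PTPRZ1 (of glia), PTPRN (of dense-core granules), PTPRQ (of the inner ear), PTPRD and PTPRT had 0 counts in both libraries. PTPRO, known from podocytes, had 0 and 2 counts. A count of 0 allows up to 3 counts, which is 0.109 CPM for the control and 0.111 CPM for the other, so PTPRO lies under that limit. PTPN6, a phosphatase with SH2 domains best known from blood cells but also made in epithelia, was well expressed, with 901 and 891 counts (21.6 and 23.0 TPM).

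Only PTPRS passed 2-fold on the log2 scale of CPM plus a pseudocount of 1. This compares with 3.26% of the 11813 expressed genes past 2-fold higher, 2.87% past 2-fold lower and 6.13% past it either way, so 1 of 26 members is close to the background. At 1.5-fold 2 members were higher (PTPRS and PTPRF) and 3 lower (PTPRH, PTPRA and PTPN12), against 10.6% and 9.96% of expressed genes. Of the 26 members 19 had a log2 ratio above 0, where 50% of expressed genes did (5909 above 0 and 5904 below). Among those 19, PTPRE, PTPN6, PTPRR and PTPN4 lay near 0, with log2 ratios from 0.0008 to 0.015. Their raw counts were equal or lower in the library labelled HIPK2 shRNA, so their sign rests on the scaling. The ratio's counting interval lay above 1 for 11 members and below 1 for 3, and held 1 for the other 12. Over all expressed genes 32.7% lay above and 34.6% below. These intervals cover counting error only and widen at low counts.

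**Figure D2:**
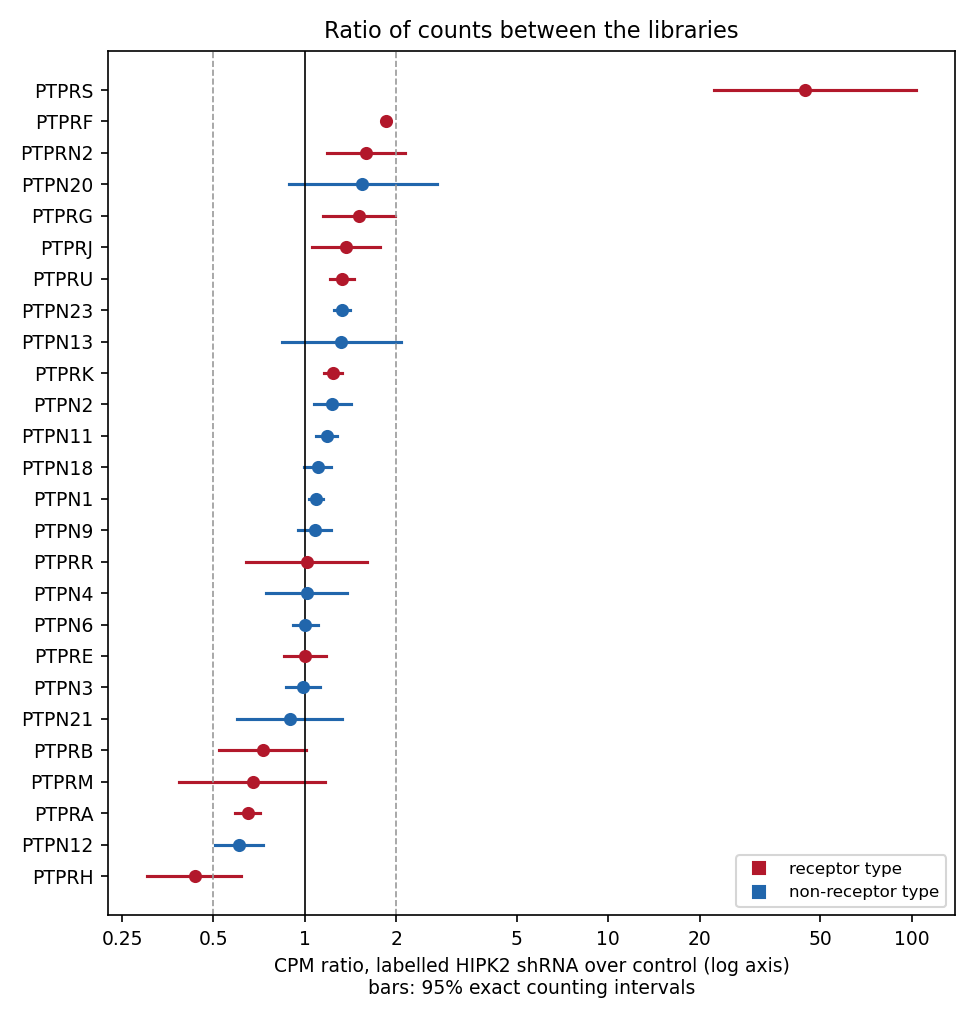
CPM ratio (log axis) of the library labelled HIPK2 shRNA over the control for the 26 expressed genes, with 95% exact counting intervals as bars and dashed lines at a ratio of 0.5 and 2. PTPRS stands alone at 44.4, PTPRF is next at 1.85, and PTPRH is the lowest at 0.433.

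In the LAR family, receptors of heparan and chondroitin sulfate proteoglycans with roles in cell adhesion and axon growth, the expressed genes were higher in the library labelled HIPK2 shRNA. PTPRS (ENSG00000105426) lies on the minus strand of chromosome 19, from 5206368 to 5293252 on GRCh38. It had 8 control counts against 350. That is 0.292 and 12.9 CPM, a ratio of 44.4 (22.3 to 104), or 0.0631 and 4.54 TPM. PTPRS was thus close to the detection limit in the control and well detected in the library labelled HIPK2 shRNA. Of 14 expressed neighbours within 500 kb of PTPRS, 0 passed 2-fold, with log2 ratios from -0.45 to 0.36. PTPRF (ENSG00000142949, chromosome 1, 43530876 to 43623666, plus strand) had 7544 and 13772 counts, or 275 and 509 CPM, a ratio of 1.85 (1.80 to 1.90). On the log2 scale of TPM plus 1 its ratio was 1.04, just past 2-fold, and in CPM 0.89, just under it. PTPRD, also known as a tumour suppressor gene, had 0 counts in both libraries. Although PTPRS had the largest ratio, it stayed far below PTPRF in level, at 1.36% of the family's TPM against 37.0%.

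Among the receptors with a MAM domain, which bind their own kind across cell contacts, PTPRK and PTPRU were higher and PTPRM had few counts. PTPRK had 1574 and 1922 counts, a CPM ratio of 1.24 (1.16 to 1.32), but its TPM was nearly level at 25.2 and 25.9. PTPRU had 795 and 1041 counts, a ratio of 1.33 (1.21 to 1.46), and its TPM went from 7.30 to 10.4. PTPRM had 36 and 24 counts, a ratio of 0.676 (0.386 to 1.16), whose interval holds 1, and its TPM was 0.321 and 0.349. The counts of PTPRM were thus lower and its TPM higher in the library labelled HIPK2 shRNA.

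The receptors with fibronectin repeats and a single phosphatase domain divided. PTPRH, an epithelial receptor known from gut and stomach, had 110 and 47 counts, or 4.01 and 1.74 CPM. In the second library it was 2.31-fold lower (1.63 to 3.32), and 2.22-fold lower in TPM (1.47 and 0.660). With the pseudocount its log2 ratio was -0.87, which is under 2-fold. Within 500 kb of PTPRH 27 genes were expressed, of which IL11 and NLRP7 were past 2-fold lower and 0 higher. PTPRJ, a receptor that acts on growth factor receptors, went the other way with 109 and 147 counts, a ratio of 1.37 (1.06 to 1.77). PTPRB, best known from endothelium, had 92 and 66 counts, a ratio of 0.727 (0.522 to 1.009). The endothelial markers PECAM1, KDR, TEK, TIE1 and EMCN were at 0 counts in both libraries, while CDH5 had 1513 and 740 counts. The summed level of the 10 endothelial markers was 56.4 and 28.6 CPM, nearly all of it CDH5 (55.2 and 27.3 CPM). VWF, the only other marker that reached 1 CPM, had 25 and 31 counts. The part of this sum in the PTPRB values was not tested.

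PTPRA and PTPRE, receptors with a short outer part that remove the inhibitory phosphate of SRC kinases, differed from each other. PTPRA had 1109 and 709 counts, which is 1.54-fold lower (1.40 to 1.70), with 15.7 and 11.5 TPM. Exons of PTPRA overlap VPS16 on the same strand, so reads there can be counted for either gene. PTPRE had 309 and 305 counts, a ratio of 1.001 (0.851 to 1.18), which is within counting error.

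The remaining receptor-type genes were low. PTPRG, with a carbonic anhydrase-like outer domain, had 92 and 137 counts, a ratio of 1.51 (1.15 to 1.99). PTPRN2, a relative of PTPRN that lies in dense-core granules, had 78 and 122 counts, a ratio of 1.59 (1.18 to 2.13). Both were higher beyond counting error but stayed under 2 TPM. The summed level of 12 neural and neuroendocrine markers was 51.5 and 72.4 CPM, and its part in the PTPRN2 values was not tested. ENO2 differed by more than the whole sum did, with 26.8 and 52.6 CPM, while TUBB3 had 21.7 and 15.5 CPM, and the 4 markers that reached 1 CPM had a median log2 ratio of 0.04. The markers CHGA, CHGB, SNAP25, STMN2, SCG3 and INSM1 were at 0 in both libraries. Of the others, SCG2 had 35 and 63 counts, a ratio of 1.82 (1.19 to 2.84), and NCAM1 had 0 and 23. SYP had 18 counts in each library and SYT1 had 31 and 14. For 10 fibroblast markers it was 18.7 and 22.0 CPM, with DCN, PDGFRA, FAP and POSTN at 0. PTPRR, which binds MAP kinases, had 41 counts in each library. PTPRR and PTPRB are neighbours on the minus strand of chromosome 12, 632 bases apart.

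Most non-receptor genes differed little, and none passed 2-fold in either direction. PTPN1 had 2790 and 3003 counts, a ratio of 1.09 (1.04 to 1.15). Its close relative PTPN2, which acts on JAK kinases, had 362 and 440 counts, a ratio of 1.23 (1.07 to 1.42). PTPN11, the SH2 phosphatase that supports RAS and ERK signalling, had 1144 and 1331 counts, a ratio of 1.18 (1.09 to 1.28). These 3 genes were higher beyond counting error, by at most 1.23 times. Exons of PTPN11 overlap the abundant ribosomal protein gene RPL6 on the opposite strand, so its counts are uncertain if counting ignored strand. The other SH2 phosphatase, PTPN6, had a ratio of 1.003 (0.913 to 1.101).

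PTPN12 had the lowest log2 ratio of the non-receptor genes (-0.65) and PTPN23 the highest (0.40). PTPN12, which acts on the focal adhesion adaptor p130CAS, had 330 and 198 counts, or 12.0 and 7.32 CPM. This is 1.64-fold lower (1.37 to 1.97), with 5.08 and 3.22 TPM. Its relative PTPN18 had 695 and 756 counts, a ratio of 1.103 (0.993 to 1.22), whose interval holds 1. PTPN23, which works in endosomal sorting, had 1787 and 2333 counts, a ratio of 1.32 (1.24 to 1.41), and 17.8 and 25.3 TPM. PTPN9, a phosphatase of secretory vesicles, had 484 and 514 counts, a ratio of 1.08 (0.949 to 1.22).

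For the 4 members with a FERM domain every interval held 1. PTPN3 had 489 and 475 counts, PTPN4 had 88 in each library, PTPN13 had 37 and 48, and PTPN21 had 58 and 51. PTPN13 and PTPN21 overlap exons of MAPK10 and SPATA7 on the opposite strand. PTPN20 had 23 and 35 counts, a ratio of 1.54 (0.886 to 2.73), and lies in a duplicated part of chromosome 10 where copies can exchange reads.

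The order of the families depended on the unit. In CPM the expressed receptor-type genes had a median log2 ratio of 0.30 and the non-receptor genes of 0.12, beside 0.0 for all expressed genes. On the log2 scale of the authors' deposited TPM plus a pseudocount of 1 the same genes had medians of 0.03 and 0.26, beside 0.08. The receptor type thus had the higher median in counts and the lower one in TPM. In both units the receptor-type genes ranged wider. Their log2 ratios ran from -0.87 (PTPRH) to 3.43 (PTPRS) in CPM and from -0.91 (PTPRB) to 2.38 (PTPRS) in TPM plus 1. The upper end is PTPRS alone, which had 8 control counts and counts as expressed only through the other library. The next receptor-type gene was PTPRF, at 0.89 in CPM and 1.04 in TPM plus 1. PTPRH and PTPRB at the lower ends also had low counts (110 and 47, and 92 and 66). Those of the non-receptor genes ran from -0.65 to 0.40 in CPM and from -0.53 (PTPN12) to 0.48 (PTPN23) in TPM plus 1. No test of this difference was made, with 1 library per group. Direction differed between CPM and TPM for PTPRM, PTPN3 and PTPRE, the last with values within 0.001 of 0.

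**Figure D3:**
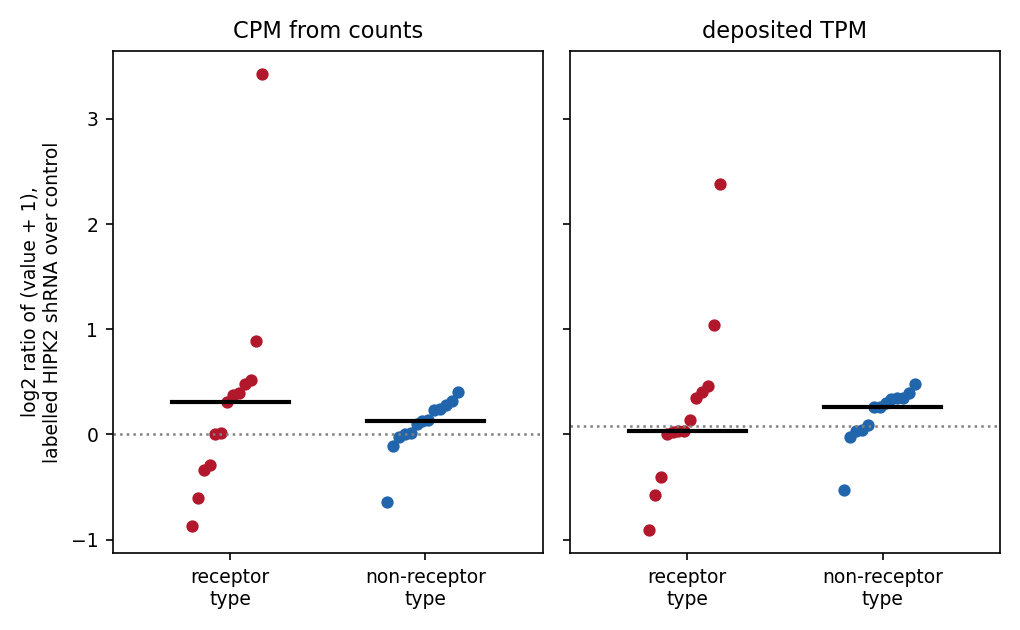
Log2 ratio of (value + 1), library labelled HIPK2 shRNA over control, for the 13 expressed receptor-type (red) and 13 non-receptor (blue) genes, in CPM (left) and deposited TPM (right). Thick bars are medians and dotted lines the median of all expressed genes; the receptor-type median is 0.30 on the left and 0.03 on the right, and the non-receptor median 0.12 and 0.26.

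CPM and TPM part where the transcript length that links them differs between the libraries, and also through their scaling. That length is implied by the deposited count and FPKM, and was scaled on genes with 1 annotated transcript, where it fell within 1% of the annotated length for 98.3% of 469 genes in the control and 98.5% of 475 in the other library. For a gene with several transcripts it is a weighted mean and no isoform measurement. The scaling differs because CPM was rescaled here and the deposited TPM was used unchanged. PTPN23, with implied lengths of 5110 and 5111 bases, thus had a ratio of 1.32 in CPM and 1.42 in TPM. Of 20 members with 50 counts or more in both libraries, 13 had implied lengths within 1.1-fold of each other, or 65.0%, beside 75.8% of 10342 such genes.

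PTPRB had the most unequal lengths of the family. Its implied length was 3250 bases in the control and 12310 bases in the library labelled HIPK2 shRNA, the latter next to the 12316 bases of its longest annotated transcript in GENCODE 29. Its TPM accordingly went from 1.44 to 0.297, 4.86-fold lower, while its CPM was 1.38-fold lower. A length more than 3.5 times that of the control was found for only 3 of the 10342 genes: PTPRB, LYSMD4 and HIPK2, named after their values were seen. HIPK2 had 3443 control bases against 13819, so its counts and TPM part in the same manner as those of PTPRB. Why the lengths differ was not tested.

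PTPN4 moved the opposite way. Its 88 counts in each library stood for 10366 bases in the control, near its longest transcript of 10300 bases, and 5900 bases in the other library. Its TPM was therefore 0.432 and 0.825 with equal counts. A ratio of lengths as low as that of PTPN4 or lower was found for 0.870% of the genes. PTPRK had 3176 and 4112 bases and PTPRJ 2623 and 3370 bases, so that both had a smaller ratio in TPM than in CPM. PTPRF had 6438 and 6162 bases and PTPRH 3816 and 3941 bases, each within 1.1-fold. The ratio of PTPRF was 2.07 in TPM and 1.85 in CPM, on either side of 2-fold, where the scaling of the units also differs. For PTPRS the lengths were 6453 and 4264 bases, near annotated transcripts of 6353 and 4518 bases, but the control value rests on 8 counts.

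**Figure D4:**
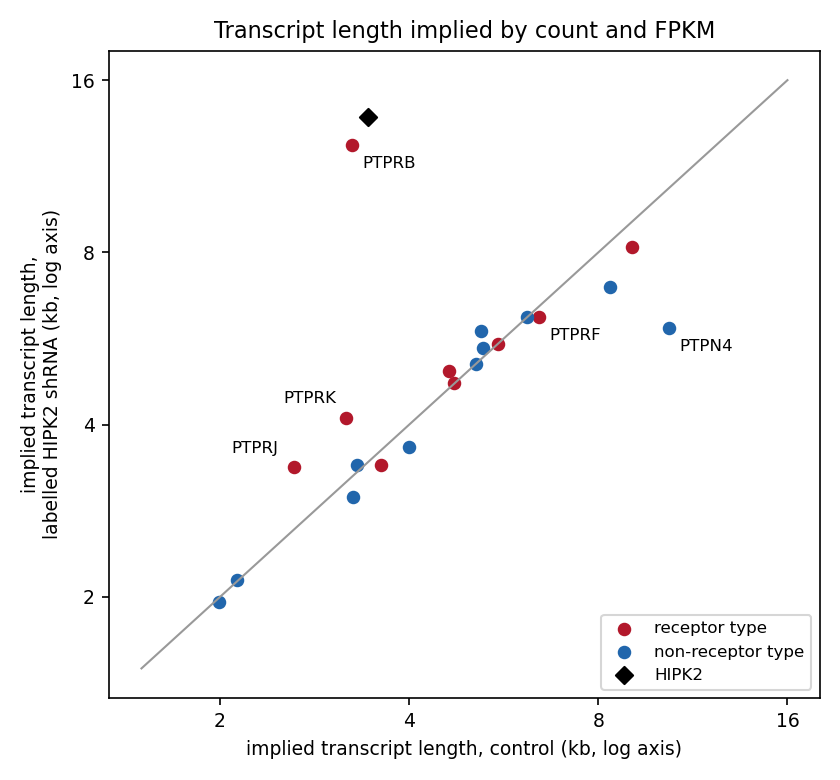
Transcript length implied by the deposited count and FPKM in the control (horizontal) and the library labelled HIPK2 shRNA (vertical), both in kb on log axes, for the 20 phosphatase genes with 50 counts or more in both libraries and for HIPK2 (diamond). Most genes lie on the diagonal of equal length, while PTPRB and HIPK2 lie far above it and PTPN4 below.

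Genes that work with these phosphatases were followed through lists of partners and substrates. Of 15 expressed ligands and partners of receptor-type phosphatases, 1 was past 2-fold higher and 0 lower, with a median log2 ratio of 0.16, beside 0.0 for all expressed genes. That gene was GPC4, a heparan sulfate proteoglycan of the kind that LAR receptors bind, with 26 and 250 counts, a CPM ratio of 9.75 (6.497 to 15.2). The heparan sulfate proteoglycan SDC3 had 739 and 1362 counts (log2 ratio 0.88), the LAR scaffold gene PPFIA3 had 98 and 201 (0.88), and PTN, a ligand of PTPRZ1, had 100 and 42 (-0.86). The other expressed heparan sulfate proteoglycans of this list went both ways. SDC1 had 7310 and 5676 counts (-0.34) and SDC4 had 21518 and 14848 (-0.51). GPC1 had 10867 and 11315 (0.08), HSPG2 4611 and 6752 (0.57) and AGRN 20303 and 29954 (0.58). Exons of HSPG2 overlap LDLRAD2 on the opposite strand. Of 14 SRC family kinases and regulators (median log2 ratio -0.08), 1 was past 2-fold higher, the ubiquitin ligase CBL with 42 and 276 counts, and 1 lower, the lymphoid kinase LCK with 105 and 27. The summed leukocyte markers were also lower in that library, mostly through HCLS1 and LAPTM5, and their part in the LCK values was not tested. The deposited TPM was 0.333 and 1.36 for CBL, and 3.33 and 1.199 for LCK, so both differed in the same direction in that unit. Exons of CBL overlap MCAM on the opposite strand, so the counts of CBL are uncertain if counting ignored strand. SRC kinase YES1 had a log2 ratio of 0.29 and the focal adhesion kinase relative PTK2B one of -0.49.

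Of 15 SHP2 adaptors and RAS input genes (median log2 ratio 0.15) 0 passed 2-fold in either direction, with SOS2 at a log2 ratio of 0.85, FRS2 at 0.38, SHC1 at -0.26 and GAB1 at 0.25. Exons of SHC1 overlap PYGO2 on the same strand, so reads there can be counted for either gene. Among 13 JAK and STAT genes (median 0.18), JAK1, which PTPN2 acts on, was past 2-fold higher with 411 and 1009 counts, a ratio of 2.49 (2.22 to 2.80), and 0 were past 2-fold lower. Exons of JAK1 overlap RAVER2 on the opposite strand, so the counts of JAK1 are uncertain if counting ignored strand. TYK2 had a log2 ratio of 0.56, SOCS2 of -0.60 and SOCS3 of -0.55. Among 12 junction substrates (median 0.14) CDH1, the epithelial cadherin, was past 2-fold lower with 5049 and 2361 counts, with 52.8 and 29.9 TPM, and 0 were past 2-fold higher. The log2 ratios of the catenin CTNND1, AFDN and ERBIN were 0.60, 0.54 and 0.49, where exons of CTNND1 overlap a read-through gene. Of 25 other phosphatases and phosphatase-like genes (median 0.11), 2 were past 2-fold higher and 0 lower: EYA2 (29 and 122 counts) and TNS1 (17 and 90 counts, with 0.0830 and 0.483 TPM). EYA4 and TNS3 had log2 ratios of 0.95 and 0.69. These shares were read beside the 3.26% and 2.87% of all expressed genes.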

How the data were processed

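RNA from 2 Cal-27 cultures, 1 per group, was sequenced as paired-end reads of 150 bp, per the labels' protocols. The submitters' processing notes name FastQC, TopHat2 2.1.1 and GRCh38 (hg38). The tool, annotation and strand setting behind the counts are unknown (not given in the sources used here). Per the file headers, the authors deposited 3 values for each of 20263 genes: a whole-number count, TPM and FPKM. The deposited counts were scaled to CPM with TMM factors (0.977 and 1.02) from edgeR 4.0.16 in R 4.3.3; edgeR gave scaling only, since single libraries allow no test. The deposited TPM was used unchanged for levels per length, and the deposited FPKM only for implied length, which is the count divided by FPKM, scaled by the median over genes with 1 GENCODE 29 transcript and 100 counts or more.

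The log2 ratio is that of (CPM + 1), or of (TPM + 1) where TPM is named, the library labelled HIPK2 shRNA over control, and understates the ratio of low genes. Calls past 2-fold or 1.5-fold are rules of size and not tests, applied where a library reached 1 CPM. CPM ratios carry 95% exact (Clopper-Pearson) intervals conditional on the summed counts, from scipy 1.17.1; these describe counting error alone, because PCR copies cannot be told from molecules without identifiers. The rule and the interval were tried on simulated counts that held counting error alone, which is what the interval assumes. That trial therefore says nothing about variation between libraries of a group. A pass limit of the trial was lowered after its first run. Every member was named, and from each list of partners up to 4 genes with the largest absolute log2 ratio. The other expressed heparan sulfate proteoglycans of the ligand list were named as well. The members and lists were chosen with earlier results of these data known. A gene matching the symbol pattern is not reported here. Promoters are RefSeq windows on GRCh38.p14, found for 31 of the 36 genes (50 starts) and searched on both strands for 6 motifs. PTPN11, PTPRB, PTPRJ, PTPRN2 and PTPRQ had no entry in that table.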

Additional observations from a re-analysis of the deposited data

How the results depend on the processing

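No paired analysis was possible because neither group has more than 1 library; for the same reason no library was left out. PTPRS stayed past 2-fold higher under every setting tried, with a log2 ratio of 3.43 that was 5.06 with a pseudocount of 0.1 CPM, 1.76 with one of 5 CPM and 2.38 in TPM plus 1. In TPM 2 members, both of receptor type, were past 2-fold higher, PTPRF being the second. With a pseudocount of 0.1 CPM 1 member, the receptor-type PTPRH, was past 2-fold lower. At 1.5-fold 2 members were higher, both of receptor type, and 3 lower, of which 2 were of receptor type and 1 was not. Over all expressed genes the 385 higher and 339 lower became 676 and 515 with a pseudocount of 0.1 CPM, 124 and 161 with one of 5 CPM, 159 and 217 among genes reaching 10 CPM, 1254 and 1176 at 1.5-fold, and 62 and 48 at 4-fold. The receptor-type median of 0.30 was 0.15 after correction for transcript length and GC content and 0.083 in TPM with a filter at 1 TPM; the non-receptor median of 0.12 was 0.10 and 0.26. Under upper-quartile scaling the medians were 0.37 (receptor type), 0.20 (non-receptor, 0.12 in the main scaling) and 0.20 (all members, 0.13 in the main scaling), with 438 expressed genes higher and 297 lower. Scaling to the total count gave 0.37, 0.19 and 0.19, with 433 and 299, and RLE scaling gave 0.29, 0.11 and 0.12, with 377 and 346. The sign of the log2 ratio changed for 2 of 26 members under RLE scaling. It changed for 1 under upper-quartile scaling and for 1 under scaling to the total count. After correction for transcript length and GC content it changed for 1 of 26 members. Under that correction the log2 ratios of 4 members lay outside their counting intervals. PTPRU went from 0.40 to 0.15, PTPN23 from 0.40 to 0.21, PTPRF from 0.89 to 0.71 and PTPN11 from 0.23 to 0.44. Leaving out the 4 members that share exons with another gene changed no count of members past 2-fold. At low levels depth sets the precision, a single count being 0.0365 (control) or 0.0370 CPM.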

Other observations

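The promoters of the phosphatase genes were rich in guanine and cytosine. Over the 50 RefSeq starts of the 31 genes with an entry the median share was 65.2%, beside 58.7% over 35116 starts of all genes. Receptor-type starts (27) had a median of 65.3% and non-receptor starts (23) one of 65.0%. The ratio of observed to expected CpG was 0.725 in the median over 34 starts of expressed members and 0.489 over 16 starts of members that were not expressed, beside 0.579 over all starts. Starts of 1 gene overlap or lie close together, so they are not independent, and no test was made. A GC box lay in 25 of the 50 starts and a TATA box (letters TATAAA) in 5, beside 11.5% of all starts. An E-box (letters CAGGTG) lay in 12, beside 20.6% of all starts, and an AP-1 site (letters TGANTCA) in 1, beside 7.71%. The CACGTG box lay in 2, of PTPRS and PTPN3, and the cyclic AMP response element in 2, of PTPRS and PTPRU.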
